A study of Mus musculus with 4 samples.

Results

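In the bed nucleus of stria terminalis (BNST), Zic1 and Zic4 GABAergic neurons were defined here by their transcripts. Barcodes entered with 400 or more genes found and no more than 10% of their unique molecular identifiers (UMIs, each marking 1 captured RNA molecule) from mitochondrial genes. A barcode was a neuron where Snap25, Syt1, Stmn2, Snhg11 and Meg3 together held at least 0.6% of UMIs, and GABAergic with at least 1 UMI of Gad1, Gad2 or Slc32a1. GABAergic neurons with at least 2 UMIs of Zic1 and Zic4 together are called Zic neurons below. They numbered 162 of 2283 GABAergic neurons, 2489 neurons, 4239 kept barcodes and 10200 barcodes in all. The other 2121 GABAergic neurons were the comparison. The study punched the BNST out of male mice of the C57BL/6J strain, which were wildtype and whose age was not given in the sources used here, and made 4 Drop-seq libraries from pools of 6 mice each. Drop-seq captures the RNA of single cells in droplets on barcoded beads. No treatment, allele or agent separated the libraries, so that all comparisons set groups of cells side by side within the same 4 pools.

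Zic proteins are zinc finger transcription factors of dorsal and midline development. Zic1 and Zic4 are neighbouring genes that are read outward from a shared region, and their neurons are known from the septum and from other medial parts of the ventral forebrain. The BNST belongs to the extended amygdala, most of its neurons release GABA, and its cell groups are often told apart by the neuropeptides they make. In GENCODE vM21 on GRCm38, Zic1 lies at chr9:91358058-91365810 on the minus strand and Zic4 at chr9:91362413-91389348 on the plus strand. Both gene models overlap by 3398 bases, while the 3′ end of each, where this method primes, lies outside the other. Zic2 (chr14:122475435-122479852, plus strand) and Zic5 (chr14:122456795-122465677, minus strand) form a second such pair with starts 9758 bases apart.

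The 250 bases upstream of the RefSeq starts of Zic1 and Zic4 are shown because these 2 genes chose the cells (GRCm38.p6, 5′ to 3′ on the gene's own strand). Capitals mark matches on either strand to a CCAAT box (CCAAT), a GC box (GGGCGG) or a TATA box (TATAAA). The windows are chr9:91365769-91366018 on the minus strand for Zic1 and chr9:91368722-91368971 on the plus strand for Zic4, and both lie within the GENCODE span of Zic4.
Zic1: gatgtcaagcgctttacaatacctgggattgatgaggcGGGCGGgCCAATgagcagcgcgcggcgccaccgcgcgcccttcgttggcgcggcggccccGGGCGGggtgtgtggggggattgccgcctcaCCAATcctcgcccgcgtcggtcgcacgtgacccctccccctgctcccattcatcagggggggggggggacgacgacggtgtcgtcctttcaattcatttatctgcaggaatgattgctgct
Zic4: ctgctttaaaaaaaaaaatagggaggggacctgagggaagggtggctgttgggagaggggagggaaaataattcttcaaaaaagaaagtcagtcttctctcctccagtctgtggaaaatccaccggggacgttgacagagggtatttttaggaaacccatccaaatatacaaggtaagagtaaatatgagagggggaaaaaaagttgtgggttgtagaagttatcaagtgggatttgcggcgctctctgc
The Zic1 window had 66.0% G and C, 27 CpG dinucleotides, 2 CCAAT boxes and 2 GC boxes. The Zic4 window had 44.4% G and C, 4 CpG dinucleotides and none of these motifs. Over 32851 RefSeq windows of this length, 33.8% held CCAAT, 32.7% held GGGCGG and 12.4% held TATAAA, with medians of 52.4% G and C and 6 CpG dinucleotides. A match describes letters in this window and not a bound site.

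The tables held 14018026 UMIs, from 2640399 to 5652342 a library. Zic neurons numbered 42, 31, 36 and 53 in libraries 1 to 4, with 267550, 156107, 128480 and 186441 UMIs, against 8295730 UMIs in the other GABAergic neurons. Their median depth was 6082, 4742, 2718 and 3212 UMIs a cell, against 4291, 3640, 3034 and 2438 in the other GABAergic neurons. It was higher in 3 of 4 libraries, by 838 ± 878 UMIs (SD, n = 4; exact sign-flip permutation p = 0.25, two-sided). The smallest p that 4 libraries allow is 2 in 16 sign patterns. A rule of 2 UMIs favours deep cells, so levels below are scaled to the UMIs of the group (CPM, counts scaled to an equal total for every sum), and counts of called genes are also given with comparison cells matched on depth. Scrublet called 62 of the 4239 kept barcodes as doublets, 1 of them a Zic neuron. Of 11 barcodes listed in more than 1 library, none was a Zic neuron.

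Zic neurons made up 5.83%, 6.58%, 8.98% and 7.68% of the GABAergic neurons of libraries 1 to 4 (7.27% ± 1.37, SD, n = 4). Exact 95% binomial intervals, which cover counting error only, were 4.23% to 7.79%, 4.52% to 9.21%, 6.37% to 12.2% and 5.81% to 9.93%, and overlapped. At an equal depth of 1000 UMIs a cell, the expected share of GABAergic neurons with a Zic1 or Zic4 UMI was 4.02%, 5.44%, 8.74% and 9.66% (6.96% ± 2.67; 2010 cells, with 273 shallower cells left out). In barcodes rich in oligodendrocyte transcripts, which should lack both genes, it was 0.420% ± 0.157, and 1 of 952 such barcodes had 2 Zic UMIs (0.105%, median depth 1392 UMIs). Barcodes rich in astrocyte transcripts stood at 1.19% ± 1.80, with 2 of 399 at 2 UMIs or more. Of 63 barcodes rich in vascular transcripts, 6 had 1 Zic UMI or more and none had 2, and their summed Zic level, from those few UMIs, was 131 ± 97.1 CPM against 83.1 ± 32.6 CPM in all GABAergic neurons. Non-neuronal barcodes in none of these classes stood at 3.97% ± 1.43 at equal depth, with 8 of 336 at 2 UMIs or more. Neurons with no Gad1, Gad2 or Slc32a1 UMI stood at 22.6% ± 7.34, and 34 of these 206 had at least 2 Zic UMIs. Of these 34, 28 held UMIs of Slc17a6, the vesicular glutamate transporter of subcortical neurons, and none held Lhx8. Zic1 and Zic4 UMIs were thus not limited to GABAergic neurons in these punches.

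**Figure D1:**
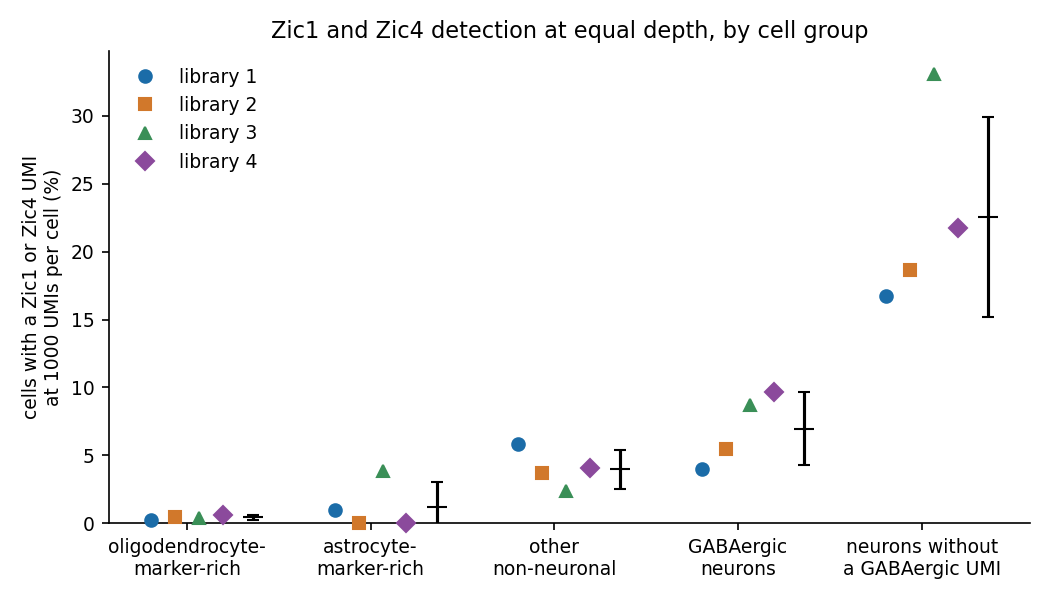
Expected percentage of cells with a Zic1 or Zic4 UMI after thinning to 1000 UMIs (vertical axis) in 5 groups of barcodes (horizontal axis); points are libraries 1 to 4 and black bars the mean ± SD over them. GABAergic neurons lie at 4.02% to 9.66%, above the oligodendrocyte-marker-rich barcodes at 0.249% to 0.624% and below neurons without a GABAergic UMI at 16.7% to 33.1%.

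The rule fixed Zic1 and Zic4, whose values are a description. Zic1 had 122, 77, 115 and 153 UMIs in the Zic neurons of libraries 1 to 4 (456, 493, 895 and 821 CPM) and 19, 17, 14 and 46 UMIs in the other GABAergic neurons (5.55, 9.999, 10.3 and 25.4 CPM). Zic4 had 33, 16, 19 and 29 UMIs (123, 102, 148 and 156 CPM) against 11, 5, 2 and 11. Of the 162 cells, 91 held Zic1 UMIs only, 3 Zic4 UMIs only and 68 both, so that 68 of 71 cells with Zic4 also had Zic1. The rule shaped this share, since a cell with 1 Zic4 UMI and no Zic1 UMI could not enter. The Zic4 UMIs of the other GABAergic neurons, above, lay in such cells. No cell had more than 10 UMIs of the pair. Among all GABAergic neurons 1996 had 0 such UMIs, 125 had 1, 61 had 2, 44 had 3 and 57 had 4 or more. Just outside the threshold, cells with 1 UMI had 36.8 CPM of Synm, 121 CPM of A230065H16Rik and 184 CPM of Npy. Just inside, cells with 2 UMIs had 49.6, 215 and 70.3 CPM, and cells with 0 UMIs had 12.6, 31.0 and 677 CPM. The cells with 1 UMI lay between the others for these 3 genes, and also for Penk, Otx2, Slc10a4 and Lhx8. They did not for Cck, at 215, 8.67 and 12.4 CPM in cells with 0, 1 and 2 Zic UMIs. Nor did they for Zic2 (0.766, 15.2 and 8.27 CPM) and Zic5 (0.638, 17.3 and 12.4 CPM). Each of these last 3 genes had 8 or fewer UMIs in the cells with 1 Zic UMI.

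The label's other marker genes were present, each in a minority of the cells, and are given with no test. A230065H16Rik, which RefSeq lists as a synonym of Lbhd2, had 89.7, 269, 140 and 375 CPM in Zic neurons against 30.7, 55.3, 15.4 and 43.7 CPM. It was found in 66 of the 162 cells. Synm, the gene of the intermediate filament protein synemin, had 29.9, 102, 70.1 and 161 CPM against 11.7, 14.1, 15.4 and 17.1 CPM and was found in 35 cells. Otx2, a homeobox factor of the anterior brain, had 16, 6, 5 and 3 UMIs against 0, 2, 2 and 6, in 17 cells, and 8 of those 17 cells were in library 1. The CPM of the groups did not overlap for any of the 3 genes, as in 5.34% of all genes tested. Since these 3 genes are markers of the label, this adds no support for it. The GABAergic genes used by the rule stood at like levels in both groups. Gad2 had 2080 ± 303 CPM in Zic neurons and 2121 ± 194 in the others, Gad1 had 649 ± 99.0 and 662 ± 75.3, and Slc32a1 had 493 ± 117 and 464 ± 42.2 (SD, n = 4).

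Gene levels were compared over the 4 libraries with edgeR on summed UMIs, with library as a block. Of 8807 genes tested, 199 passed an adjusted p of 0.05 (2.26%). They comprised 86 that were higher in Zic neurons (0.976%) and 113 that were lower (1.28%), and 189 of them had 1 direction in all 4 libraries. The CPM of both groups did not overlap in 470 genes (5.34%), and the median log2 fold change over all genes tested was 0.0061. With comparison cells matched on depth, 44 genes were higher and 64 lower. DESeq2 called 39 higher and 40 lower. Without library 2, 3 or 4, edgeR called 43 and 63, 51 and 70, and 27 and 46 genes.

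Zic5 and Zic2 were among the 4 largest rises with 1 direction in all 4 libraries. Zic5 had 4, 5, 4 and 10 UMIs against 1, 3, 3 and 6 among the 2121 other cells, with a log2 fold change of 4.14 (SE 0.51, adjusted p 1.03e-06). Zic2 had 4, 2, 3 and 5 UMIs against 4, 1, 3 and 5, with 3.47 (SE 0.58, adjusted p 0.000257). In neither did the CPM of the groups overlap. Zic5 was detected in 22 of the 162 Zic neurons and Zic2 in 13.

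Slc10a4 had the largest rise of the 86 genes. Its product is a vesicular protein known from cholinergic and monoaminergic nerve endings. It had 9, 5, 18 and 13 UMIs in Zic neurons (33.6, 32.0, 140 and 69.7 CPM) and 5, 7, 0 and 11 in the others (1.46, 4.12, 0 and 6.08 CPM), a log2 fold change of 4.35 (SE 0.48, adjusted p 1.18e-07). Without library 3 it was 3.62. Slc10a4 lies at chr5:73006883-73012955 and was detected in 25 Zic neurons. Pooled over libraries, these were 6 of the 12 Zic neurons with a UMI of the cholinergic genes Chat or Slc5a7 and 19 of the 150 without. In the fit without cells holding Chat or Slc5a7, Slc10a4 was not among the genes tested.

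Of the other large rises, Myo10 (an unconventional myosin of filopodia) had 44.9, 76.9, 93.4 and 123 CPM in Zic neurons against 16.4, 14.7, 26.4 and 26.0 CPM. The groups did not overlap, with a log2 fold change of 1.97 (SE 0.28, adjusted p 1.69e-05). Kitl, the ligand of the Kit receptor, had 48.6, 76.9, 85.6 and 37.5 CPM against 15.2, 12.9, 19.1 and 13.8 CPM (1.95, SE 0.32, adjusted p 0.000219). Cd59a, an inhibitor of complement, had 37.4, 44.8, 62.3 and 59.0 CPM against 16.4, 14.7, 9.54 and 8.84 CPM (1.95, SE 0.36, adjusted p 0.00111). For these 3 genes every library of Zic neurons exceeded every library of the others. The metallothionein Mt2 (2.07), the protease inhibitor Serpinb1b (2.03), the acyl-CoA dehydrogenase Acadl (2.00), the secreted calcium-binding protein Smoc1 (1.91) and Nudt17 (1.86) were the other large rises described, each with 33 or fewer UMIs in Zic neurons. Their calls were lost without single libraries. The adjusted p was 0.0844 for Mt2 without library 4 and 0.261 for Serpinb1b without library 1, where its log2 fold change was 1.32. It was 0.0557, 0.216 and 0.129 for Acadl without libraries 2, 3 and 4, 0.0666 and 0.286 for Smoc1 without libraries 3 and 4, and 0.163, 0.0821 and 0.0975 for Nudt17 without libraries 1, 2 and 3. Serpinb1b and Mt2 have close family members among which reads could be split.

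**Figure D2:**
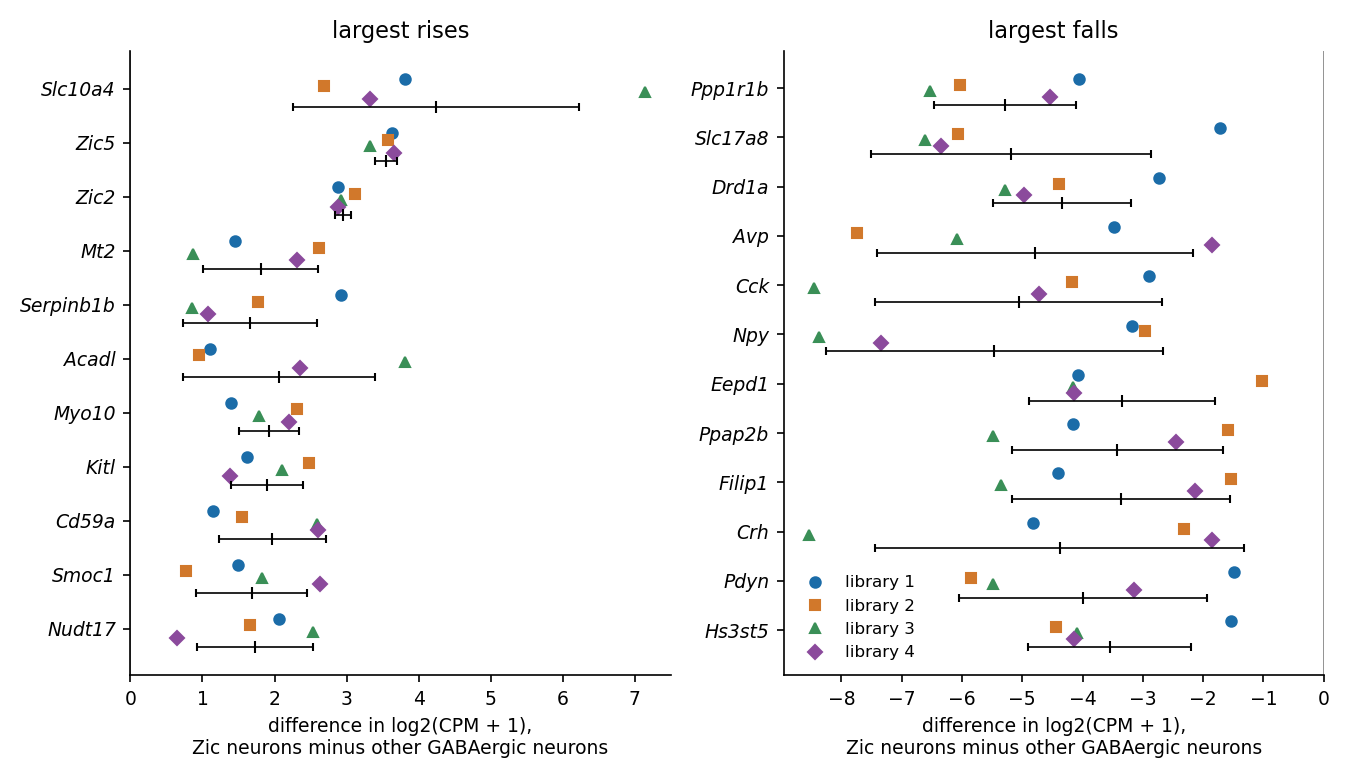
Within-library difference in log2(CPM + 1) between Zic neurons and other GABAergic neurons (horizontal axis) for the largest rises and largest falls described (vertical axis); points are libraries and black bars the mean ± SD. All points of the rises lie above 0 and all points of the falls below 0, which the rule for naming these genes required.

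Neuropeptide transcripts were lower in Zic neurons. Of 18 genes tested in a list of 28 neuropeptides, granins and related secreted proteins, 11 fell and 2 rose, and the list's median log2 fold change was -1.78. Over all genes tested, 1.28% fell and 0.976% rose. Neuropeptide Y (Npy) had 21, 7, 0 and 1 UMIs in Zic neurons (78.5, 44.8, 0 and 5.36 CPM) and 2467, 605, 449 and 1864 in the other GABAergic neurons (720, 356, 330 and 1030.3 CPM). The groups were far apart in every library, with a log2 fold change of -4.06 (SE 0.26, adjusted p 4.30e-13). Cholecystokinin (Cck) had 7, 1, 0 and 1 UMIs (26.2, 6.41, 0 and 5.36 CPM) against 202, 132, 348 and 167 CPM, a change of -4.06 (SE 0.31, adjusted p 7.42e-11). Corticotropin-releasing hormone (Crh) had 7.48, 57.7, 0 and 80.5 CPM against 238, 292, 369 and 294 CPM, a change of -3.02 (SE 0.28, adjusted p 2.50e-09). For these 3 genes no library of Zic neurons reached the lowest library of the others. Npy UMIs came from 5 of the 162 cells, Cck UMIs from 5 and Crh UMIs from 6. In such sums fewer cells with a transcript and less of it per cell cannot be told apart.

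Dynorphin (Pdyn) had 4, 0, 0 and 1 UMIs against 149, 96, 60 and 100, a log2 fold change of -2.85 (SE 0.50, adjusted p 0.000513). Cartpt had 86.0, 115, 171 and 145 CPM against 634, 535, 537 and 370 CPM, without overlap (-2.07, SE 0.17, adjusted p 9.12e-11). Enkephalin (Penk) had 26.2, 429, 7.78 and 113 CPM against 615, 727, 633 and 1012 CPM (-2.55, SE 0.28, adjusted p 9.61e-08). The Penk groups did not overlap, but 67 of its 96 UMIs were in library 2, and without that library the change was -3.94. Substance P precursor (Tac1) had 66, 0, 3 and 3 UMIs, of which library 1 held nearly all. Its CPM overlapped the others', and the change was -1.84 (SE 0.29, adjusted p 9.24e-05), or -4.40 without library 1. Vasopressin (Avp) had 3, 0, 0 and 1 UMIs against 465, 361, 91 and 40 (-4.33, SE 0.43, adjusted p 1.89e-08), and the latter came from 20 cells. Galanin (Gal) had 23, 0, 4 and 11 UMIs against 875, 889, 121 and 124 (-2.14, SE 0.32, adjusted p 5.62e-05), or -1.24 without library 2. With DESeq2 the adjusted p was 0.0933 for Tac1 and 0.999 for Gal. Leaving out library 1 moved the change of Npy to -5.13, of Cck to -5.55, of Pdyn to -4.55 and of Avp to -5.43. Without library 2 that of Avp was -3.60, and without library 4 that of Npy was -3.40 and that of Crh -3.83.

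The remaining genes of that list moved less. Somatostatin (Sst) had 194, 83.3, 778 and 85.8 CPM against 994, 432, 337 and 1915 CPM, and passed (-1.71, SE 0.37, adjusted p 0.00509) although library 3 went the other way. Without library 3 the change was -3.06, and without libraries 2 and 4 its adjusted p was 0.154 and 0.386. The granin Scg2 fell by 0.46 on the log2 scale (SE 0.10, adjusted p 0.00884). The granin Chga rose (0.53, SE 0.11, adjusted p 0.00496), as did Nxph1, a secreted ligand of neurexins (0.87, SE 0.20, adjusted p 0.0105). Without library 2 the adjusted p of Scg2, Chga and Nxph1 was 0.214, 0.0567 and 0.252, and without library 4 it was 0.225, 0.132 and 0.156. That of Chga was 0.0574 with comparison cells matched on depth. Tac2, the precursor of neurokinin B, did not pass, with 434, 57.7, 630 and 869 CPM against 424, 418, 127 and 339 CPM (0.58, SE 0.28, adjusted p 0.441). Neurotensin (Nts) had 202, 448, 0 and 252 CPM against 312, 368, 199 and 419 CPM (-0.56, SE 0.20, adjusted p 0.189). Vip and Oxt had 0 UMIs in the 162 cells.

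**Figure D3:**
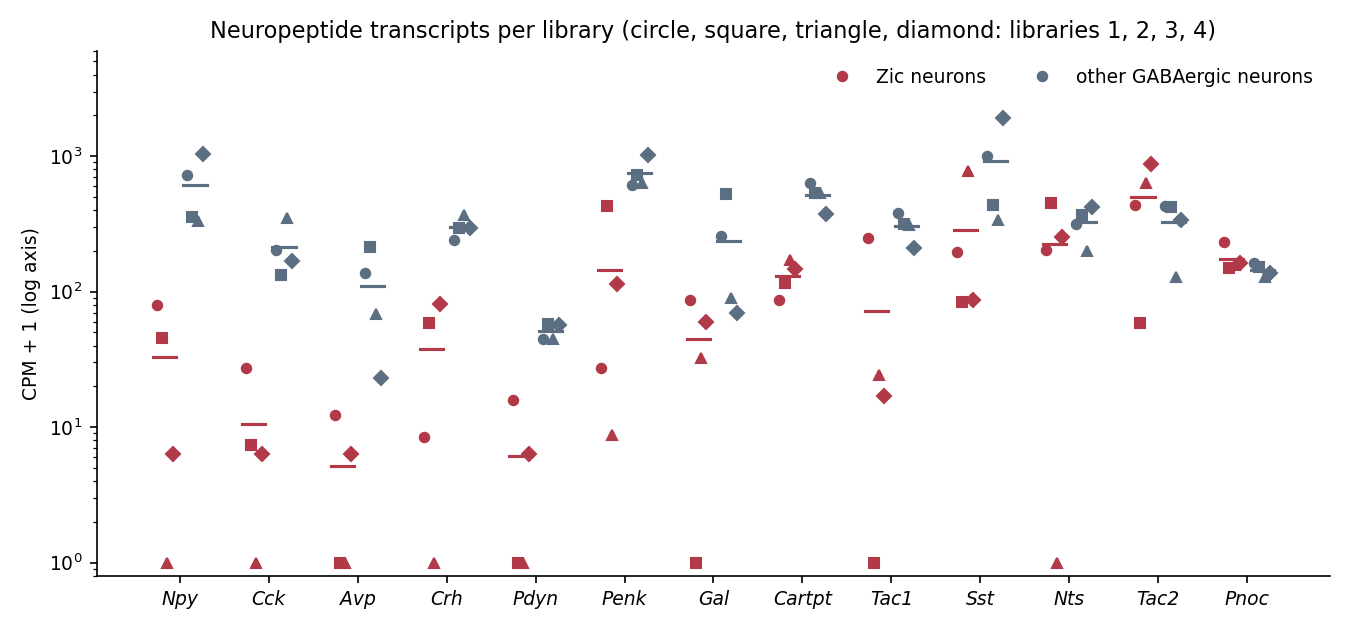
CPM + 1 on a log axis (vertical) of 13 neuropeptide genes (horizontal) in Zic neurons (red) and other GABAergic neurons (grey); each symbol is 1 library and lines are means. Npy, Cck, Crh and Pdyn of Zic neurons lie below all 4 libraries of the others, while Tac2, Nts and Pnoc overlap.

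Pnoc, the gene of prepronociceptin and the subject of the series, did not pass the test. It had 62, 23, 20 and 30 UMIs in Zic neurons (232, 147, 156 and 161 CPM) and 553, 257, 173 and 246 in the others (162, 151, 127 and 136 CPM), with overlap. Within libraries, log2(CPM + 1) differed by 0.25 ± 0.23 (SD, n = 4) and was higher in 3 of 4, with p = 0.25 by exact permutation of signs (two-sided). The edgeR log2 fold change was 0.30 (SE 0.15, adjusted p 0.459). Pnoc UMIs were found in 53 Zic neurons, and at 1000 UMIs a cell the expected share was 14.7% ± 1.73 in Zic neurons and 9.13% ± 1.29 in the others. Oprl1, the gene of its receptor, had 74.8, 57.7, 54.5 and 64.4 CPM against 49.4, 61.8, 60.2 and 76.3 CPM (0.09, SE 0.24, adjusted p 0.946). None of 11 peptide receptor genes tested with edgeR passed, with 3 at an unadjusted p under 0.05 and a median of 0.01. With 2.26% called over all genes, few calls or none would fall in a list this short. None of 4 genes of steroid signalling passed either, with 2 at an unadjusted p under 0.05 and a median of -0.38.

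Transcripts that are typical of striatal projection neurons were lower as well. Of 15 genes tested in that list 8 fell, beside 1.28% over all genes, and none rose, with a median of -1.50. Penk, Tac1 and the factor Bcl11b are among these 8. Ppp1r1b, which encodes the dopamine-regulated phosphatase inhibitor DARPP-32, had 1, 0, 0 and 1 UMIs in Zic neurons and 268, 109, 125 and 266 in the other GABAergic neurons. The pooled level in the others was 34.2 times that of Zic neurons (95% counting interval 9.43 to 283), with a log2 fold change of -5.08 (SE 0.49, adjusted p 7.50e-09). Arpp21, a cAMP-regulated phosphoprotein, had 247, 179, 179 and 231 CPM against 647, 476, 578 and 693 CPM, without overlap (-1.50, SE 0.12, adjusted p 8.38e-11). The dopamine receptor gene Drd1a had 1, 0, 0 and 0 UMIs against 104, 34, 52 and 55, a pooled ratio of 21.8 (3.88 to 865; -4.34, SE 0.79, adjusted p 0.000784). The thyroid hormone binding protein Crym fell by 2.55 on the log2 scale. Without library 4 the change of Crym was -3.93, and without library 1, where no Drd1a UMI remained in Zic neurons, the fitted change of Drd1a was -7.70, which is no bound. Pde10a (-0.28, adjusted p 0.714), Rgs9 (-0.90, adjusted p 0.127) and Foxp1 (-0.73, adjusted p 0.159) did not pass, and Adora2a had 0 UMIs in Zic neurons.

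Of 14 monoamine and acetylcholine receptor genes tested, 2 fell and 1 rose, beside 2.26% called over all genes, with a median of -0.08. Drd1a, above, was the first of the falls. The muscarinic receptor gene Chrm1 had 3, 3, 0 and 0 UMIs against 137, 62, 61 and 94 (-2.39, SE 0.51, adjusted p 0.00469), or -3.11 without library 2 and -1.88 with an adjusted p of 0.106 without library 4. Chrm2, another muscarinic receptor, had 97.2, 83.3, 117 and 69.7 CPM against 47.3, 51.8, 43.3 and 40.4 CPM, without overlap (0.99, SE 0.23, adjusted p 0.0105). Its adjusted p was 0.078, 0.100 and 0.0541 without libraries 1, 3 and 4, and 0.128 without cells that held Chat or Slc5a7. The remaining large falls were Slc17a8, the vesicular glutamate transporter VGLUT3, with 2, 0, 0 and 0 UMIs against 92, 112, 132 and 145 (pooled ratio 21.4, interval 5.90 to 177; -4.42, adjusted p 7.59e-06, or 0.0836 with DESeq2), Ppap2b (-3.25), Filip1 (-3.17), Eepd1 (-3.44) and Hs3st5 (-2.85). The fitted change of Slc17a8 was -9.16 without library 1, where no UMI remained in Zic neurons, and -9.10 without cells that held Slc17a6 or Slc17a7, and neither value is a bound. Ppap2b, Filip1, Eepd1 and Hs3st5 had 1 or 2 UMIs in Zic neurons, with pooled ratios of 9.57 (2.62 to 79.5), 9.21 (2.52 to 76.6), 11.7 (2.06 to 464) and 7.48 (2.04 to 62.3). Each of these 4 lost its call without at least 2 of the libraries, with adjusted p up to 0.226.

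Transcription factors of the forebrain lineages changed in both directions. Of 41 tested, 7 fell and 5 rose, beside 1.28% and 0.976% over all genes, and the median was -0.24. Meis2, a factor of striatal and amygdalar projection neurons, had 71.0, 288, 85.6 and 172 CPM in Zic neurons against 367, 478, 481 and 513 CPM, without overlap (-1.63, SE 0.17, adjusted p 5.50e-08). Bcl11b, which acts in the differentiation of striatal neurons, had 37.4, 70.5, 15.6 and 91.2 CPM against 152, 184, 247 and 263 CPM, also without overlap (-1.91, SE 0.22, adjusted p 1.89e-07). Nr2f1, a nuclear receptor of the caudal ganglionic eminence, had 15, 0, 7 and 0 UMIs against 350, 135, 179 and 164 (-1.77, SE 0.34, adjusted p 0.00154), and was -2.73 without library 1. Its relative Nr2f2 had 108, 6.41, 163 and 26.8 CPM against 166, 131, 210 and 156 CPM, with overlap (-1.14, SE 0.24, adjusted p 0.00507). Lmo3, a LIM-only cofactor, fell without overlap (-1.14, SE 0.19, adjusted p 0.000233), as did Lmo4 with overlap (-0.63, SE 0.15, adjusted p 0.0148). The adjusted p of Nr2f2 was 0.0809 and 0.138 without libraries 2 and 4, and that of Lmo4 was 0.0512, 0.105 and 0.266 without libraries 1, 2 and 4. With comparison cells matched on depth it was 0.236 for Lmo4, and with DESeq2 it was 0.477 for Nr2f1 and 0.576 for Nr2f2.

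Dlx1, a homeobox factor of GABAergic neurons, had 273, 179, 226 and 225 CPM in Zic neurons and 145, 142, 134 and 116 CPM in the others. Every library of Zic neurons was above every library of the others, with a log2 fold change of 0.77 (SE 0.14, adjusted p 0.000903). Nfix, a nuclear factor I gene, had 44.9, 44.8, 109 and 102 CPM against 26.0, 12.4, 38.9 and 33.2 CPM (1.38, SE 0.28, adjusted p 0.00241; 0.0842 without library 4). Zfhx4, a large zinc finger and homeobox factor, had 123, 147, 163 and 107 CPM against 76.8, 75.9, 70.5 and 75.2 CPM (0.82, SE 0.19, adjusted p 0.00879; 0.0946 and 0.0949 without libraries 2 and 3). Lhx8, a LIM homeobox factor of ventral and cholinergic lineages, had 41.1, 64.1, 148 and 75.1 CPM against 25.4, 31.8, 13.2 and 27.6 CPM (1.58, SE 0.33, adjusted p 0.0039). None of these 4 genes overlapped between groups. The Lhx8 call was lost without library 3 (1.04, adjusted p 0.124), without library 4 (adjusted p 0.0514) and with comparison cells matched on depth (1.26, adjusted p 0.0627), as was that of Zfhx4 (0.66, adjusted p 0.100). The fifth, Nfia, passed with 4, 0, 10 and 12 UMIs, of which library 2 had none (1.80, SE 0.46, adjusted p 0.0233; 0.503 without library 4). Six3 (0.56, adjusted p 0.215), Isl1 (0.36, adjusted p 0.608), Nkx2-1 (0.93, adjusted p 0.383) and Lhx6 (-0.58, adjusted p 0.543) did not pass.

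Within the Zic neurons, Lhx8 and Six3 were each found in a minority of cells. Lhx8 without Six3 was detected in 23 of 162 cells, Six3 without Lhx8 in 47, both in 6 and neither in 86, at median depths of 4694, 3614, 4398.5 and 4365 UMIs. Slc10a4 was found in 10 of the 29 cells with Lhx8 (34.5%, 95% interval 17.94% to 54.3%) and in 15 of the 133 without it (11.3%, 6.45% to 17.92%). By library, 1 to 4, these were 2, 1, 6 and 1 cells with Lhx8 and 2, 3, 4 and 6 without it. These intervals cover counting error only. Otx2 was found in 2 of 29 and 15 of 133 cells, and Synm in 4 of 29 and 31 of 133. A230065H16Rik was found in 14 of 29 and 52 of 133, and Pnoc in 9 of 29 and 44 of 133. For these last 4 genes the intervals of both shares overlapped, and those of Slc10a4 all but met. Cells with Zic4 and cells without it also had overlapping intervals for Lhx8 (10 of 71 and 19 of 91), Six3 (19 and 34) and Pnoc (24 and 29). These are counts of cells pooled over libraries and carry no test, and overlap of intervals is no test either. Depth also differed, and deep cells more often show UMIs of 2 genes at once. Median depth was 6179.5 UMIs in cells with Lhx8 and Slc10a4, and 4510 in cells with Slc10a4 but no Lhx8.

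Markers of other transmitters were present in a few cells. Chat or Slc5a7, the genes of acetylcholine synthesis and choline uptake, had UMIs in 12 of the 162 Zic neurons (4, 2, 6 and 0 in libraries 1 to 4) and in 21 of the 2121 others. Slc5a7 had 12, 2, 39 and 0 UMIs against 2, 30, 9 and 9, and passed (3.40, SE 0.58, adjusted p 0.000336) with both directions among the libraries, but not without library 3 (1.98, adjusted p 0.336). Of those 12 cells, 8 held Lhx8. In the list of cholinergic genes 2 of 3 tested rose, Slc5a7 and Lhx8, and in that of glutamatergic genes 1 of 2 fell, Slc17a8. Over all genes 0.976% rose and 1.28% fell. Without cells that had Chat or Slc5a7, 68 genes were higher and 82 lower, Lhx8 did not pass (1.13, adjusted p 0.231), and the change of Cartpt was -3.21. Slc17a6 had 34, 0, 6 and 2 UMIs against 76, 40, 13 and 33 and did not pass (1.40, SE 0.44, adjusted p 0.0977). Its UMIs came from 9 Zic neurons, 5 of them in library 1, and Slc17a7 had none. Without cells holding Slc17a6 or Slc17a7, 82 genes were higher and 107 lower.

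Of the non-neuronal marker genes tested, 0 of 10 oligodendrocyte, 0 of 4 astrocyte, 0 of 1 microglia and 0 of 1 vascular genes passed with edgeR, and 3, 2, 0 and 1 had an unadjusted p under 0.05. With 2.26% called over all genes, few calls or none would fall in lists as short as those of this paragraph. The summed level of 12 oligodendrocyte genes ran from 164 to 2167 CPM in Zic neurons and from 291 to 1546 CPM in the others, higher in Zic neurons in 1 of 4 libraries. The 12 astrocyte genes ran from 231 to 310 CPM against 325 to 370 CPM, lower in 4 of 4 libraries without overlap, with Aqp4 and Gfap at 0. The oligodendrocyte precursor genes ran from 63.5 to 117 CPM against 121 to 228 CPM, also lower in 4 of 4 without overlap. The part of these astrocyte and precursor transcripts in the results was not tested. C1qa, C1qb, C1qc, Csf1r and Cx3cr1 of the microglia, and Cldn5, Flt1, Dcn and Col1a1 of vascular cells and fibroblasts, were at 0 in Zic neurons. In the oligodendrocyte precursor list 1 gene was tested and fell, Cacng4 (-0.67, adjusted p 0.0347), whose adjusted p was 0.054 to 0.240 without single libraries and 0.0509 with comparison cells matched on depth, and the defining Pdgfra and Olig2 were at 0. No immediate early gene passed with edgeR among 8 tested, with 1 at an unadjusted p under 0.05, and none of 2 genes of ependymal, choroid plexus or dividing cells, with 0.

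Of 36 ion channel genes tested 2 rose and 2 fell, beside 2.26% called over all genes, with a median of -0.19. The calcium channel subunit Cacna2d2 had 172, 320, 296 and 311 CPM against 155, 153, 159 and 149 CPM (0.78, SE 0.15, adjusted p 0.00121), and the potassium channel Kcnq3 had 52.3, 64.1, 62.3 and 80.5 CPM against 121, 117, 217 and 170 CPM (-1.23, SE 0.20, adjusted p 0.00014). Neither overlapped. Trpc4 rose (1.18, adjusted p 0.018) and Cacna2d3 fell (-1.36, adjusted p 0.00763). Without library 4 the adjusted p was 0.071 for Cacna2d2, 0.160 for Trpc4 and 0.094 for Cacna2d3, without library 2 it was 0.0615, 0.165 and 0.0688, and without library 3 that of Trpc4 was 0.137.

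Of 55 adhesion and guidance genes tested 1 rose and 1 fell, a share near the 2.26% of all genes, with a median of 0.03. The rise was Nxph1, above, and the fall Epha5, an ephrin receptor (-0.51, SE 0.12, adjusted p 0.0152), whose adjusted p was 0.124 and 0.144 without libraries 1 and 4. Of 9 calcium-binding proteins tested 2 fell and 1 rose, with a median of -0.40. Hpcal4, a calcium sensor of the hippocalcin family, had 146, 147, 109 and 113 CPM against 223, 279, 342 and 340 CPM, without overlap (-1.12, SE 0.16, adjusted p 1.69e-05). Rcn1, reticulocalbin of the endoplasmic reticulum, had 71.0, 70.5, 77.8 and 53.6 CPM against 141, 132, 138 and 133 CPM, without overlap (-1.01, SE 0.19, adjusted p 0.00142). Vsnl1, visinin-like protein, rose (0.40, SE 0.089, adjusted p 0.00732), and its adjusted p was 0.123 and 0.117 without libraries 3 and 4 and 0.0611 with comparison cells matched on depth. Calb1 (-0.34, adjusted p 0.470) and Calb2 (0.48, adjusted p 0.282) did not pass, though Calb1 did without library 4 (-0.77, adjusted p 0.014). The counting strand was not given in the sources used here. Reads from a stretch shared with a listed gene on the opposite strand therefore cannot be told apart from that gene's. Beside Zic1 and Zic4, such overlaps occurred for Synm, Six3, Ppp1r1b, Penk, Arpp21, Nr2f1, Nr2f2, Nfix, Zfhx4, Lmo3, Chrm1, Chrm2, Nudt17, Cacna2d3 and Cacng4. Whether they reach the 3′ end of each of these genes, where this method primes, was not tested.

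To compare Zic neurons with groups chosen in the same way, GABAergic neurons with at least 2 UMIs of Lhx8, Six3 or Cck were set beside them, and cells in more than 1 group were left out. This left 124 Zic neurons, 50 Lhx8 neurons (4 of them in library 3), 148 Six3 neurons and 128 Cck neurons. Their median depths were 4031.5, 6104, 4283.5 and 5860 UMIs a cell, and these comparisons were not matched on depth. Of 3691 genes tested, Zic neurons differed from Lhx8 neurons in 124 (3.36%), with 78 higher (2.11%) and 46 lower (1.25%). From Six3 neurons they differed in 139 (3.77%), with 47 higher (1.27%) and 92 lower (2.49%). From Cck neurons they differed in 139 (3.77%), with 53 higher (1.44%) and 86 lower (2.33%). All 3 comparisons share the same Zic neurons. None of the 12 largest rises was among the 3691 genes, so their levels are values only. Myo10 had 81.0 ± 17.3 CPM in Zic neurons, 3.71 ± 4.43 in Lhx8 neurons, 11.5 ± 2.83 in Six3 neurons and 29.7 ± 20.2 in Cck neurons (SD, n = 4). Slc10a4 had 57.3 ± 38.4, 10.1 ± 11.8, 1.66 ± 3.31 and 0 CPM. The 13 Zic neurons with at least 2 Lhx8 UMIs were left out of both groups. Slc10a4 was found in 10 of the 29 Zic neurons with any Lhx8 UMI, so its level in the Lhx8 neurons depends on that choice. Acadl (27.3 ± 12.5 against 40.0 ± 18.4 CPM) and Mt2 (35.9 ± 17.2 against 47.5 ± 62.5 CPM) had higher means in Lhx8 neurons.

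Peptide genes were then compared with the 3 groups. Of the 10 peptide-list genes that were lower in all 4 libraries above, 8 were tested against Lhx8 neurons and 1 passed, Crh, with 31.2 ± 45.7 CPM against 602 ± 183 (-4.41, SE 0.41, adjusted p 2.10e-09). Cartpt (-1.19, adjusted p 0.222), Scg2 (-0.12, adjusted p 0.823) and Npy (3.65, SE 1.61, adjusted p 0.240) did not. Against Six3 neurons 1 of 8 passed, Penk, with 165 ± 205 CPM against 1497 ± 435 (-3.35, SE 0.28, adjusted p 5.20e-11). Cartpt (-1.36, adjusted p 0.0748) and Scg2 (-0.28, adjusted p 0.386) did not, and Pdyn, not tested, had 6.72 ± 9.10 CPM against 39.0 ± 16.7, lower in 4 of 4 libraries. Against Cck neurons 4 of 7 passed, all lower, namely Cartpt (-4.43), Gal (-3.50), Tac1 (-2.86) and Scg2 (-1.12), with adjusted p from 6.72e-12 to 5.69e-06. Over all genes tested, 1.25%, 2.49% and 2.33% were lower than in Lhx8, Six3 and Cck neurons. The median log2 fold change of the peptide genes tested was 0.31, -0.04 and -1.44. These genes had been picked as lower in largely the same Zic neurons, so their falls here are no independent result. Pnoc was lower than in Cck neurons, with 179 ± 40.0 CPM against 405 ± 111 (-1.12, SE 0.29, adjusted p 0.0171). It did not pass against Lhx8 neurons (0.67, adjusted p 0.474) or Six3 neurons (1.09, adjusted p 0.0919).

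Among lineage factors, Dlx1 had 249.5 ± 53.0 CPM in Zic neurons, 68.8 ± 49.7 in Lhx8 neurons (1.96, SE 0.34, adjusted p 0.000316), 26.8 ± 19.5 in Six3 neurons (3.25, SE 0.34, adjusted p 1.97e-08) and 318 ± 80.9 in Cck neurons (-0.33, adjusted p 0.556). Meis2 was lower than in Six3 neurons, with 182 ± 135 CPM against 775 ± 64.9 (-2.25, SE 0.28, adjusted p 6.29e-07), and Ppp1r1b had 1 UMI in the Zic neurons and 114 in Six3 neurons (-6.04, SE 0.72, adjusted p 3.85e-07). Ppp1r1b had 0 UMIs in Lhx8 neurons (adjusted p 0.791) and 5 in Cck neurons (-1.63, adjusted p 0.671). Bcl11b was lower than in Six3 neurons (-1.78, adjusted p 0.000986) and higher than in Cck neurons (2.11, adjusted p 0.0232). Nr2f2 was lower than in Cck neurons, with 75.9 ± 63.1 CPM against 442 ± 174 (-2.52, SE 0.26, adjusted p 8.04e-09), and Zfhx4 was higher (2.34, SE 0.40, adjusted p 9.33e-05). Nfix was higher than in Six3 neurons (2.73, SE 0.68, adjusted p 0.0136), and Chga was higher than in Six3 neurons (0.63, adjusted p 0.0432) and Cck neurons (0.74, adjusted p 0.0144). Leaving out library 1 reduced the genes that differed from Lhx8 neurons to 61 and from Six3 neurons to 68. Without library 2 the former count was 77, without library 4 the counts were 64 and 70, and without library 3 that for Six3 neurons was 72.

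**Figure D4:**
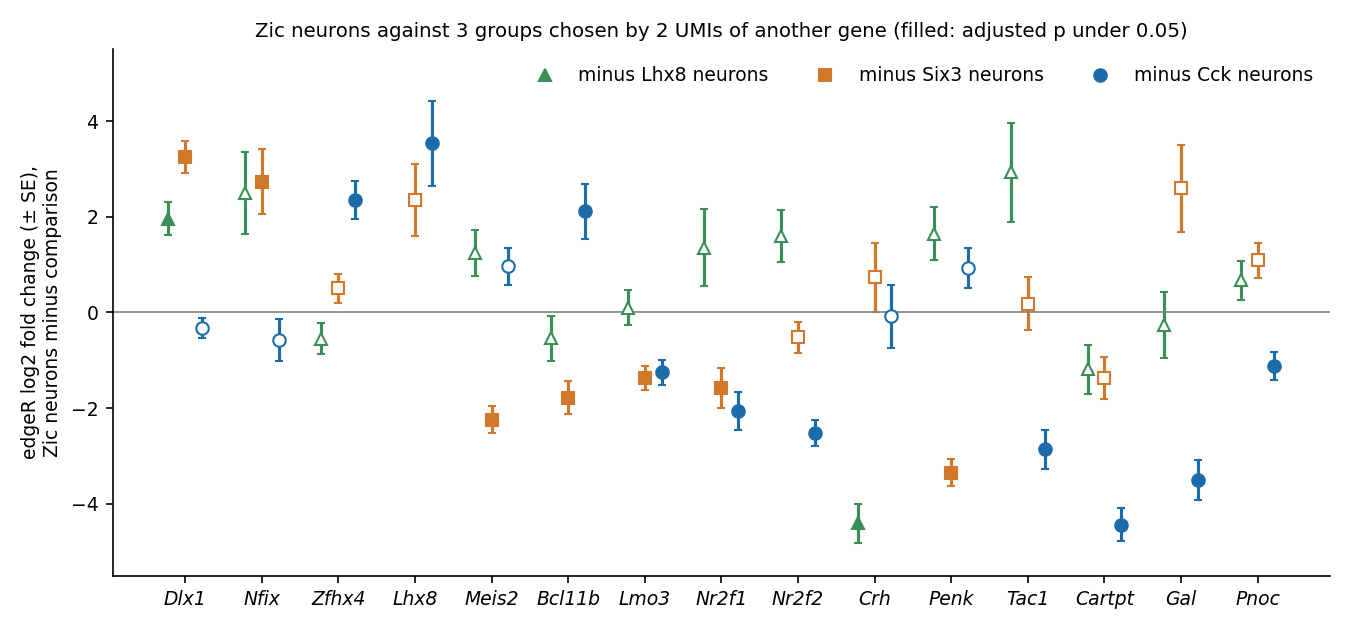
edgeR log2 fold change ± SE (vertical axis) of 15 lineage factor and peptide genes (horizontal axis) between Zic neurons and neurons with at least 2 UMIs of Lhx8 (triangles), Six3 (squares) or Cck (circles); filled symbols passed an adjusted p of 0.05, and a gene is not drawn against the group it chose. Crh lies at -4.41 against Lhx8 neurons, Penk at -3.35 against Six3 neurons and Cartpt at -4.43 against Cck neurons.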

How the data were processed

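Drop-seq UMI counts per gene and cell barcode were deposited by the authors, 1 raw count table per library. Per the submitters' processing notes, bcl2fastq 2.18.0.12, STAR 2.4.2a and Picard 2.2.4 were used with mm10 (GRCm38). The annotation and counting strand are not given in the sources used here.

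Cells and lists were chosen with earlier results of these data known. UMI counts were summed per library and group and compared by the quasi-likelihood F-test of edgeR 4.0.16 (R 4.3.3; TMM, filterByExpr, library as block, Benjamini-Hochberg adjustment over all genes tested, threshold 0.05). The block is the library because both sums of a library come from the same pool of mice. P-values measure the spread between 4 pools. Genes used by the rule, and label markers, were not tested. The genes named are the 12 largest rises and 12 largest falls that passed with 1 direction in all 4 libraries, genes of the lineage, peptide and receptor lists that passed likewise, Pnoc, Oprl1, and up to 4 of each other list. Some of these genes are not reported here. Nfia, Sst and members that did not pass were named after their values were seen.

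On simulated counts of 8820 genes, edgeR recovered 59% of 200 genes changed 2-fold and 85.5% of those changed 4-fold, with 2.48% and 1.16% of its calls wrong. The simulation used 1 mean profile for all libraries and a spread set by expression level alone. Its rates may not hold for genes whose UMIs lay mostly in single libraries. Depth per library and cell is in the text. Thinned shares are expected values at 1000 UMIs a cell. Depth-matched fits used 3 comparison cells per Zic neuron. Doublets, called by Scrublet in scanpy 1.11.5 (expected rate 0.05), were kept in the main fit and left out in an alternative. Sums and figures used pandas 2.3.3, numpy 2.4.6, matplotlib 3.10.9, scipy 1.17.1 and Python 3.11.15. Of 20136 gene names, 18830 (93.5%) were found in GENCODE vM21, and promoter windows came from RefSeq. Alternatives changed the filters, the rule's thresholds, scaling, test and libraries. Those leaving out cells with Slc17a6 or Slc17a7, cells with Chat or Slc5a7, or barcodes shared between libraries were chosen after seeing the data.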

Additional observations from a re-analysis of the deposited data

Results flagged for a closer look

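In 5 of 67 sets of 4 library values, 1 library stood apart from the others by more than Dixon's 95% critical share of the range. Chance flags about 1 in 20 such sets, or 3.35 here. All values are differences in log2(CPM + 1) between Zic neurons and other GABAergic neurons. Slc17a8 was at -1.717 in library 1, where the 2 UMIs of Zic neurons lay, and between -6.613 and -6.063 elsewhere. Eepd1 was at -1.029 in library 2, which held its 1 UMI, against -4.161 to -4.068. Hs3st5 was at -1.541 in library 1, which held its 2 UMIs, against -4.432 to -4.1. Gal was at -9.033 in library 2, where Zic neurons had 0 UMIs, against -1.561 to -0.2129. Cacng4 was at -0.2956 in library 2 and between -0.7973 and -0.741 in the others.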

How the results depend on the processing

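The 199 genes called against other GABAergic neurons became 79 with DESeq2, 438 with cells of at least 1 Zic UMI, 117 with at least 3, 108 with comparison cells matched on depth, 27 with cells thinned to 1000 UMIs and 35 with the rule applied to thinned cells. Of the calls, 43.2% were higher in Zic neurons, against 31.7% with no low-count filter (287 calls), 7.41% with thinned cells and 8.57% with the rule on thinned cells. Leaving out 1 library gave 73 to 170. The same pool of mice pairs both sums of a library, and with no replicate block the count was 60, or 51, 34 and 59 against Lhx8, Six3 and Cck neurons. DESeq2 called 57, 59 and 75 there, against 124, 139 and 139. With no low-count filter the count against Lhx8 neurons was 193. Leaving out 1 library gave 61 to 109, 68 to 104 and 99 to 115. The share of GABAergic neurons was 12.5% with at least 1 Zic UMI and 4.52% with at least 3, and moved by less than 1 SD under the other alternatives. The Pnoc difference stayed above 0, from 0.17 to 0.73. Its exact sign-flip permutation p cannot fall below the smallest that 4 libraries allow. It equalled that value with a mitochondrial limit of 5%, at least 1 Zic UMI and comparison cells matched on depth. The same held with thinned cells, with the rule on thinned cells and without cells holding Chat or Slc5a7. In these alternatives Pnoc was higher in Zic neurons in all 4 libraries. The p was larger in the others, and those without single libraries could not reach that value. With edgeR, Pnoc passed in no alternative. Oprl1 turned to -0.1094 with a mitochondrial limit of 5%, -0.01028 with at least 1 Zic UMI, -0.06805 with neuron genes at 1% or more and ranged from -0.18 to 0.21 without single libraries. The cause was not tested. Of 56 named genes that passed, none changed direction in those of 22 alternatives that gave it a value. Most had been named for passing with 1 direction in all 4 libraries, and the alternatives reuse the same cells. Reversals were therefore unlikely from the start, and their absence adds no support. With DESeq2 30 passed, 18 did not and 8 had no adjusted p. With no replicate block 31 of 56 passed, with thinned cells 12 of 31, and without libraries 1 to 4 passed 45 of 53, 40 of 55, 41 of 56 and 32 of 56. Genes with few UMIs in Zic neurons rest on 738578 UMIs in all, and levels near 0 were limited by that depth.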
